A study of Mus musculus with 8 samples.

Results

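Metallothioneins and the transporters that move zinc across liver cell membranes were examined in mouse liver after a 2-week infusion of a gut microbial metabolite into the portal vein. The 6 genes were taken by name: the metallothioneins Mt1 and Mt2, the metal-sensing transcription factor Mtf1, and the transporters Slc30a1, Slc30a10 and Slc39a14. All 6 of 6, among 35975 genes with a listed transcript, passed the filter of at least 10 counts in every library, which 12883 genes passed. One group of 4 C57BL/6J mice received normal saline, and the other group of 4 received 4-hydroxyphenylacetic acid (4-HPAA), a phenolic acid made by gut microbes, at 55 mM in the same saline. Both groups carried a portal vein catheter fed by an osmotic pump at 0.25 µL per hour for 2 weeks. The mice were wild type, were bought at 8 to 10 weeks of age, and were housed singly after surgery, so the comparison is between infusates and includes no mouse without surgery. Both sexes were bought for the study and the labels do not give the sex of these mice, but all 4 Y-linked genes listed passed the filter in all 8 libraries. RNA of whole liver was sequenced as paired-end reads of 100 bp, and the values are counts of transcripts estimated by pseudo-alignment and summed per gene.

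Metallothioneins are small cysteine-rich proteins that bind zinc and copper and buffer the free metal in the cell. When zinc rises, MTF1 binds metal response elements in front of the metallothionein genes and of Slc30a1, which encodes the zinc exporter ZnT1 of the plasma membrane. In liver the metallothionein genes are also induced by glucocorticoids and by the acute phase response, in which the importer ZIP14, encoded by Slc39a14, brings zinc into hepatocytes. ZIP14 also carries manganese and iron, and the SLC30A10 protein exports manganese.

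The question was whether infusion of 4-HPAA changed these genes. In the main test, which did not pair the mice, none of the 6 differed between the groups beyond the spread of the mice. By quasi-likelihood F test in edgeR, adjusted over all genes by the method of Benjamini and Hochberg, 0 of the 6 passed an adjusted p of 0.05, where 0 of 12883 genes (0%) passed. At an unadjusted p under 0.05, 0 of the 6 were called against 225 of the 12883 genes (1.75%). Leaving out normal saline 3 made this 1 of the 6, Mt1 (unadjusted p = 0.0322, edgeR). The groups overlapped for all 6, while 154 of the 12883 genes (1.20%) had groups that did not overlap. DESeq2 called 2 genes and limma-voom 0, none of them among the 6. The clearest feature of the data was the range of the metallothioneins from mouse to mouse within each group, in which Mt1 and Mt2 moved together.

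The libraries held 29559978 to 30673398 estimated counts each, so that the 6 genes were read by between 184 counts, for Slc30a10, and 18823 counts, for Mt1, and the spread of the mice limited the precision of the comparisons. The 7 hepatocyte markers were abundant in all 8 libraries, with a summed level between 96020 and 128200 CPM (counts scaled to a common library size by TMM). The 7 red cell markers summed to 261 to 2604 CPM in the control mice, highest in normal saline 2, and to 164 to 750 CPM with 4-HPAA, highest in 4-HPAA 4. All 7 had a log2 fold change below 0, with a median of -1.75. Of these 7 markers, 1 had an unadjusted p under 0.05 in edgeR, against 1.75% of all tested genes. This was Car2, a carbonic anhydrase, at 4.01 to 25.5 CPM in the control mice and 3.27 to 3.67 CPM with 4-HPAA (log2 fold change -1.42 ± 0.60, SE, unadjusted p = 0.0388, edgeR). Its control value of 25.5 CPM was that of normal saline 2. The 9 Kupffer cell and leukocyte markers summed to 88.3 to 278 CPM in the control mice and 82.1 to 231 CPM with 4-HPAA. The part of these cells in the results was not tested. In whole liver, fewer cells of a type and less RNA per cell cannot be told apart. The library 4-HPAA 4 held the highest of the 8 values for 18.7% of tested genes and the lowest for 20.6%, more than any other library (9.76% to 13.2% and 9.96% to 12.7%).

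Since MTF1 acts through short sequences at gene starts, the promoters of the metallothioneins and of Slc30a1 are shown, each from up to 250 bases before the RefSeq start in GRCm38.p6 and cut at the first annotated transcript. Capitals mark matches to the core of the metal response element, spelled TGCACNC or TGCGCNC and searched on both strands.
Mt1, chr8:94178839-94179081, plus strand: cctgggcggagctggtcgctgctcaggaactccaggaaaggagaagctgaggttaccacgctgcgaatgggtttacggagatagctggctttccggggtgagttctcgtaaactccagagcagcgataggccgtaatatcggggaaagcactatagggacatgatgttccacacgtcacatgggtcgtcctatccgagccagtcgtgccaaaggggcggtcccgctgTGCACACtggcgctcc
Mt2, chr8:94172368-94172617, plus strand: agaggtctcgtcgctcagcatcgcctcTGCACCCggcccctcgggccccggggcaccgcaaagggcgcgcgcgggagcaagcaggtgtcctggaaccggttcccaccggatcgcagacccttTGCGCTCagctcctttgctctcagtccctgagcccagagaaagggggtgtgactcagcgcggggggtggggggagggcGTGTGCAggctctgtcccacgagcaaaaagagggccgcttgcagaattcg
Slc30a1, chr1:191906531-191906766, plus strand: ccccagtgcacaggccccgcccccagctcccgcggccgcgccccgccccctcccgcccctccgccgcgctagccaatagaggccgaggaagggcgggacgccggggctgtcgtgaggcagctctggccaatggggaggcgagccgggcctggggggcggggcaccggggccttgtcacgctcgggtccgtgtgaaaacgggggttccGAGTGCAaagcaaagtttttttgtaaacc
The stretches shown held 1 match for Mt1, 3 for Mt2 and 1, on the reverse strand, for Slc30a1. Over the whole promoter window of 300 bases, which runs 50 bases past the start, Mt1 held 3 matches that do not overlap each other, Mt2 held 4 and Slc30a1 held 2. Of 32851 windows of this length from 27025 genes, 1.31% held at least 3 such matches, 0.295% at least 4 and 6.14% at least 2. The window of Slc30a10 held 2 separate matches, with an overlapping pair counted as 1, and that of Mtf1 held 0. For Mt1, the matches past the stretch shown began at bases 3 and 21 from the start. Sequence outside these windows was not searched, so the counts need not cover a whole promoter. A match is a run of letters and was not measured as a site here. The window of Slc39a14 was not analysed here.

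Mt1 (ENSMUSG00000031765, GRCm38 chr8:94179082-94180327, plus strand), a metallothionein of most tissues, read 604, 393, 234 and 380 CPM in normal saline 1 to 4 and 426, 231, 239 and 307 CPM in 4-HPAA 1 to 4. Normal saline 1 was the highest mouse of all, the other mice of both groups shared 1 range, and normal saline 3 was as low as the lowest mice given 4-HPAA. The control mice averaged 402.5 ± 152 CPM and the mice given 4-HPAA 300.7 ± 90.1 CPM (SD, n = 4 each). The log2 fold change, 4-HPAA against normal saline, was -0.42 ± 0.28 (SE), with an interval of 2 SE on each side from -0.98 to 0.14 and an edgeR adjusted p of 1.00. Its size was above that of 97.5% of the tested genes, at an unadjusted edgeR p of 0.162. Without normal saline 1 the log2 fold change was -0.16, and without 4-HPAA 1 it was -0.63, so that either library moved it by 1.5 times or more. Without normal saline 3 it was -0.61.

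Mt2 (ENSMUSG00000031762, chr8:94172664-94173568, plus strand), the neighbour of Mt1 at a distance of 5513 bases, read 433, 243, 117 and 235 CPM in normal saline 1 to 4 and 304, 154, 133 and 253 CPM in 4-HPAA 1 to 4. The highest and the lowest of the 8 mice, normal saline 1 and normal saline 3, both belonged to the control group. The means were 257 ± 131 CPM and 211 ± 81.2 CPM (SD, n = 4 each), and the log2 fold change was -0.29 ± 0.37 (SE, edgeR adjusted p = 1.00), with an interval of 2 SE from -1.03 to 0.46. Its direction rested on normal saline 1, without which the log2 fold change was 0.09. Without normal saline 3 or 4-HPAA 1 it was -0.53 and -0.51, and without 4-HPAA 2 or 4-HPAA 3 it was -0.16 and -0.12. The remaining metallothionein genes of the mouse, Mt3 and Mt4, which are known from brain and stratified epithelia, were nearly absent. Mt3 had 1 count in normal saline 1 and 0 in the others, and Mt4 had 0 counts in all 8 libraries, which allows up to 3 counts per library by counting error alone.

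Mtf1 (ENSMUSG00000028890, chr4:124802104-124849800, plus strand) encodes the zinc sensor itself. It read 14.4, 16.6, 19.1 and 14.9 CPM in normal saline 1 to 4 and 13.2, 15.8, 16.9 and 15.6 CPM in 4-HPAA 1 to 4. The groups lay over each other, with normal saline 3 highest and 4-HPAA 1 lowest. The log2 fold change was -0.08 ± 0.11 (SE, edgeR adjusted p = 1.00), with an interval of 2 SE from -0.30 to 0.14. It was 0.01 without normal saline 3, -0.01 without 4-HPAA 1, and -0.13 without normal saline 1 or without 4-HPAA 3.

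Slc30a1 (ENSMUSG00000037434, chr1:191906767-191913247, plus strand), the zinc exporter, read 30.7, 26.0, 22.9 and 26.5 CPM in normal saline 1 to 4 and 24.8, 24.1, 27.2 and 32.4 CPM in 4-HPAA 1 to 4. Its highest mouse was 4-HPAA 4 and its next highest was normal saline 1. The log2 fold change was 0.03 ± 0.12 (SE, edgeR adjusted p = 1.00), with an interval of 2 SE from -0.20 to 0.27. It was -0.07 without 4-HPAA 4 and -0.03 without normal saline 3, and 0.11, 0.08 and 0.09 without normal saline 1, 4-HPAA 1 and 4-HPAA 2.

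Slc30a10 (ENSMUSG00000026614, chr1:185454848-185468762, plus strand), the manganese exporter, lay close together in the control mice, with 8.11, 7.31, 7.51 and 7.66 CPM in normal saline 1 to 4. In 4-HPAA 1 to 4 it read 6.42, 9.87, 6.37 and 13.1 CPM. Of the mice given 4-HPAA, 2 lay below the lowest control mouse and 2 above the highest. The coefficient of variation was 4.46% in normal saline and 35.9% in 4-HPAA, a difference that was not tested. The control libraries held 213 to 253 counts of Slc30a10, at which counting error alone is larger than the 4.46%. That value therefore does not measure how alike the control mice were. The log2 fold change was 0.22 ± 0.22 (SE, edgeR adjusted p = 1.00), with an interval of 2 SE from -0.21 to 0.65. It was -0.02 without 4-HPAA 4, and 0.36 and 0.35 without 4-HPAA 1 and 4-HPAA 3.

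Slc39a14 (ENSMUSG00000022094, chr14:70303469-70351425, minus strand), which encodes ZIP14, read 365, 363, 298 and 263 CPM in normal saline 1 to 4 and 346, 279, 313 and 275 CPM in 4-HPAA 1 to 4. Both groups held high and low mice and covered nearly the same range. The log2 fold change was -0.09 ± 0.13 (SE, edgeR adjusted p = 1.00), with an interval of 2 SE from -0.34 to 0.16. It was -0.02 and -0.03 without normal saline 1 and normal saline 2, and -0.17 and -0.15 without normal saline 4 and 4-HPAA 1. Leaving out 4-HPAA 2 or 4-HPAA 4 gave -0.05.

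**Figure D1:**
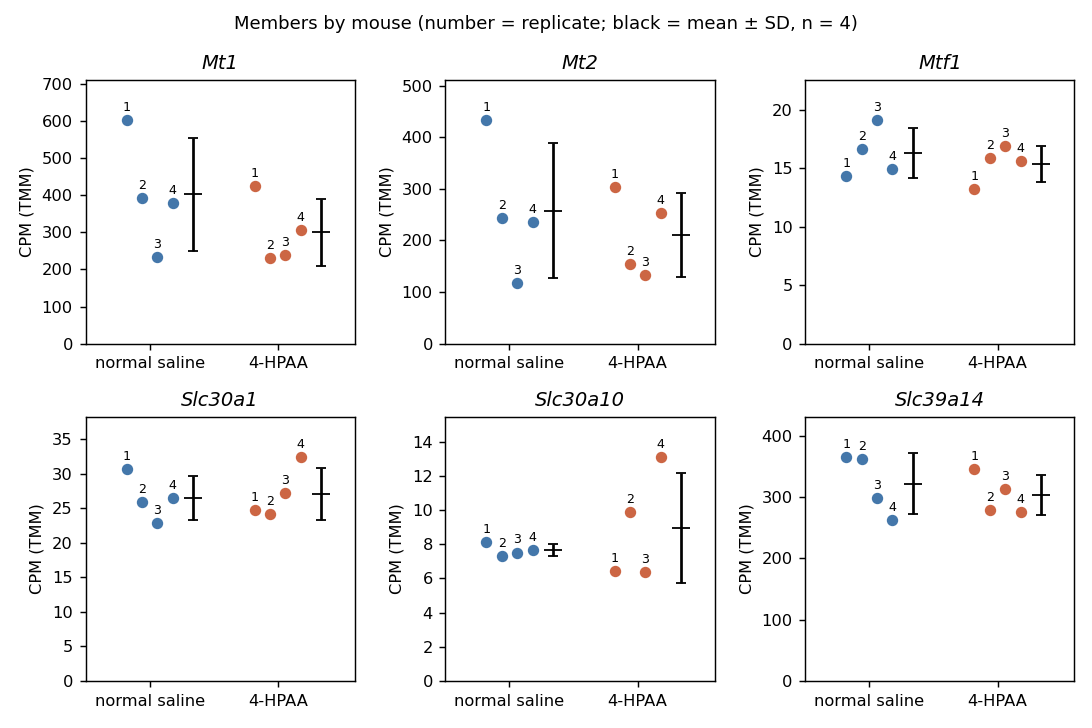
The level of each of the 6 genes in each mouse, in TMM-normalized CPM on an axis from 0 (points, numbered by replicate; black, mean ± SD, n = 4). Normal saline 1 is the highest mouse for Mt1 and Mt2 at 604 and 433 CPM, and for Slc30a10 the control mice lie between 7.31 and 8.11 CPM while the mice given 4-HPAA lie on both sides of them.

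The genes differed in how far they ranged over the 8 mice. The highest mouse was 3.70 times the lowest for Mt2 and 2.61 times for Mt1, against 2.05 for Slc30a10, 1.45 for Mtf1, 1.41 for Slc30a1 and 1.39 for Slc39a14. Within groups the coefficient of variation of Mt1 was 37.8% in normal saline and 29.96% in 4-HPAA, and that of Mt2 was 50.9% and 38.5%. Mt1 and Mt2 together made up 0.0351% to 0.104% of the normalized counts of a library, with the lowest sum, 351 CPM, in normal saline 3 and the highest, 1037 CPM, in normal saline 1. The ratio of Mt1 to Mt2 in CPM ran from 1.22 in 4-HPAA 4 to 2.00 in normal saline 3.

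Levels of different genes were compared per length, as TPM (transcript copies scaled to a common total) from annotated transcript lengths, which understates the level of transcripts as short as those of Mt1 and Mt2. Over the 8 mice Mt1 had 985 ± 375 TPM, Mt2 752 ± 342 TPM, Slc39a14 147 ± 23.2 TPM, Slc30a1 8.35 ± 1.05 TPM, Mtf1 5.85 ± 0.635 TPM and Slc30a10 2.32 ± 0.607 TPM (SD, n = 8). Mt1 was above Mt2 in 8 of 8 mice, by 1.11 to 1.71 times, although their ranges overlapped. All other neighbours in this order had ranges over the mice that did not overlap, and the closest of them, Slc30a1 and Mtf1, differed by 1.16 to 1.61 times within a mouse. Slc39a14 was the most abundant of the zinc transporters tested. Next among the importers was Slc39a7, which releases zinc from the endoplasmic reticulum and Golgi, at 50.6 TPM. The most abundant of the SLC30 family were Slc30a9 at 37.6 TPM and Slc30a5, a transporter of the secretory pathway, at 20.2 TPM.

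**Figure D2:**
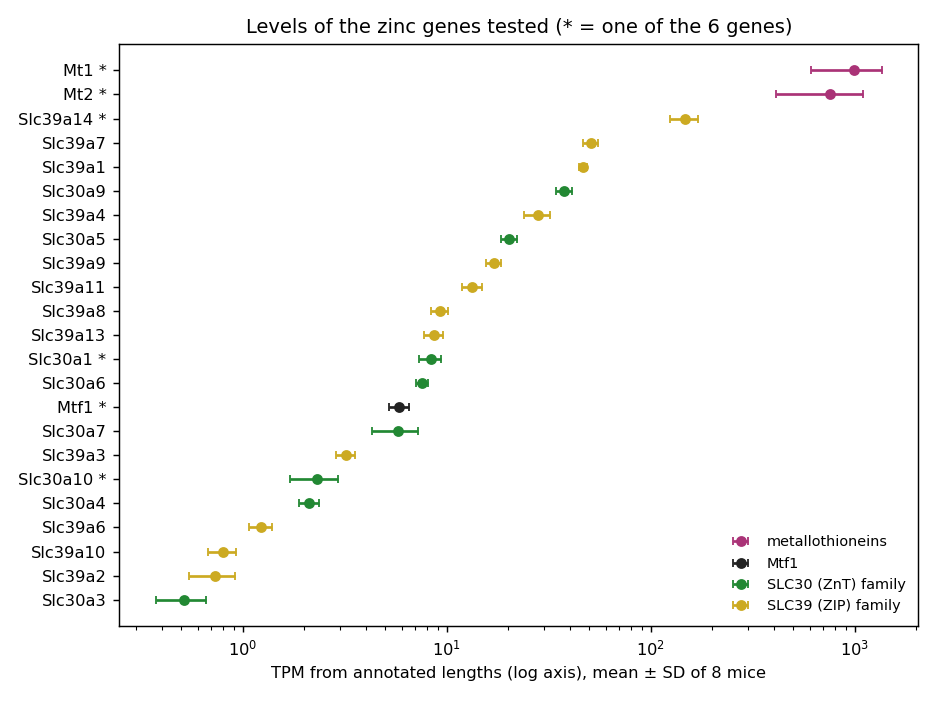
Mean level per length of the metallothioneins, Mtf1 and the zinc transporters tested, in TPM on a log axis (points, mean; bars, SD over 8 mice; colors, gene family). Mt1 and Mt2 stand at 985 and 752 TPM, Slc39a14 at 147 TPM, and Slc30a10 at 2.32 TPM is among the lowest.

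The wider zinc transporter families were compared in the same way. Of the 11 zinc export genes listed, 8 were tested, and 0 passed at an adjusted p of 0.05 or at an unadjusted p under 0.05. Their log2 fold changes had a median of 0.05, against 0.0007 over all genes tested, with 7 above 0 and 1, Slc30a6, at -0.0047. Slc30a9 had a log2 fold change of 0.06 ± 0.10 (SE), and Slc30a5 one of 0.01 ± 0.09 (SE). Of the 14 import genes, 12 were tested, 0 passed in either way, and the median log2 fold change was 0.0034 with 6 above 0 and 6 below. The largest was that of Slc39a8, which carries zinc and manganese, at 0.09 ± 0.08 (SE), and the lowest was that of Slc39a14. The genes under the filter were Slc30a2, Slc30a8 and Tmem163 among the exporters and Slc39a5 and Slc39a12 among the importers.

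**Figure D3:**
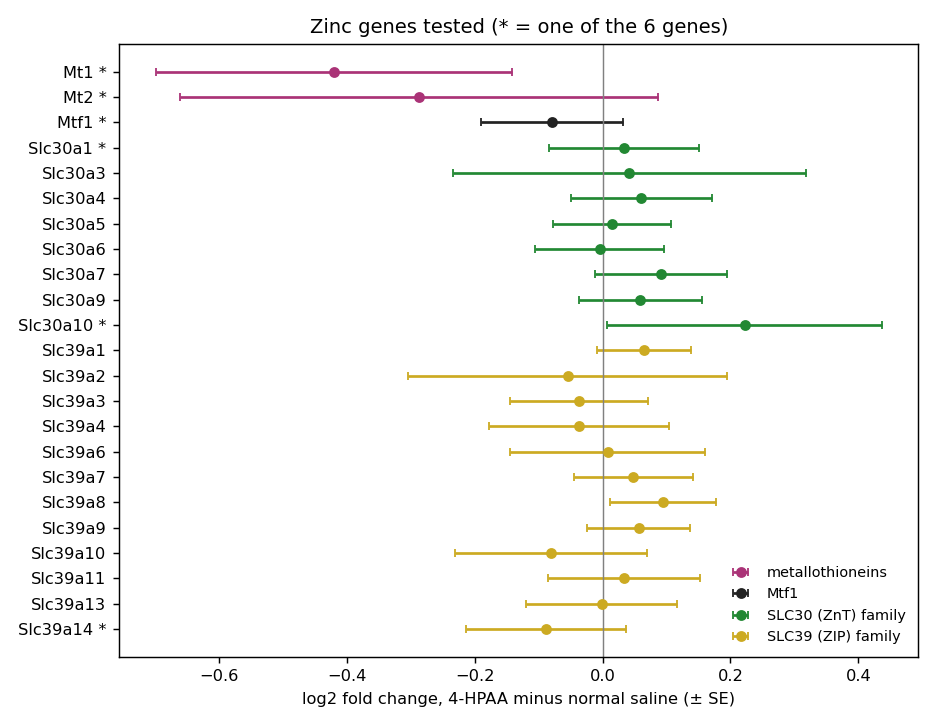
Log2 fold change, 4-HPAA minus normal saline, of the zinc genes tested (points; bars, SE of the edgeR fit; colors, gene family). Mt1 and Mt2 lie lowest with the longest bars among the 6 genes, at -0.42 and -0.29, and the SLC30 and SLC39 families lie between -0.09 and 0.22.

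Genes that handle copper and manganese were also listed. In the copper list, 0 of 14 genes were called at an unadjusted p under 0.05, the median log2 fold change was -0.0095, and the ends were Cox11, a copper chaperone of cytochrome oxidase, at 0.18 ± 0.13 (SE) and the chaperone Atox1 at -0.06 ± 0.08 (SE). The abundant members of that list, the zinc and copper enzyme Sod1 and the plasma copper carrier Cp, had log2 fold changes of 0.05 and -0.04. In the manganese list, 0 of 8 were called and the median was 0.04. There, the manganese enzymes Arg1 and Sod2 had log2 fold changes of 0.0022 ± 0.17 and 0.08 ± 0.07 (SE), and Slc30a10 and Slc39a14 were the ends of the list.

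Mt1 and Mt2 rose and fell together over the mice. Pearson's r of their log2 CPM was 0.951 (exact permutation test of the pairings, two-sided, p = 0.00102, adjusted p = 0.0153 over the 15 pairs of the 6 genes, n = 8), and Spearman's rho was 0.857 (exact permutation p = 0.0107). Without the 2 mice farthest from the median of Mt1, normal saline 1 and 4-HPAA 2, r was 0.925, and with the group means removed it was 0.978. Leaving out 1 mouse at a time gave r between 0.917 and 0.981. The main transcripts of the genes could be told apart, since Mt1-201 shared none of its 519 stretches of 31 bases with a transcript of another gene.

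In CPM, Mtf1 had negative correlations with both metallothioneins. Its r with Mt2 was -0.802 (exact permutation p = 0.0162, adjusted p = 0.122 over 15 pairs, n = 8) with a rho of -0.857 (exact permutation p = 0.0107), and its r with Mt1 was -0.70 (exact permutation p = 0.0515, adjusted p = 0.257, n = 8) with a rho of -0.714 (exact permutation p = 0.0576). Neither passed after adjustment. Without the 2 mice farthest from the median of the metallothionein, r was -0.684 for Mt2 and -0.794 for Mt1, and with the group means removed it was -0.894 and -0.915. The unit matters here. In TPM, Mtf1 read 6.45 in normal saline 1, the mouse with the most Mt1 and Mt2, close to its highest value, 6.46 in 4-HPAA 4. It was lowest at 4.81 TPM in 4-HPAA 1. The relation was not tested in TPM. As a level per length, TPM gives more weight to the counts of a short transcript. Mtf1-204, a retained-intron form, has 781 bases against 7631 for Mtf1-201. It held 10.7% of the Mtf1 counts in normal saline 1 and 11.2% in 4-HPAA 4, and 4.29% to 6.71% in the other mice. The part of this form in the TPM of Mtf1 was not separated. In the other 12 pairs the adjusted p of the exact permutation test was 0.37 or more. Mt1 and Slc30a1, whose promoters shown above both hold matches to the metal response core, had an r of 0.448 (exact permutation p = 0.268, adjusted p = 0.446, n = 8), and r was 0.0393 without normal saline 1 and 4-HPAA 2, so that the relation rested on those mice.

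**Figure D4:**
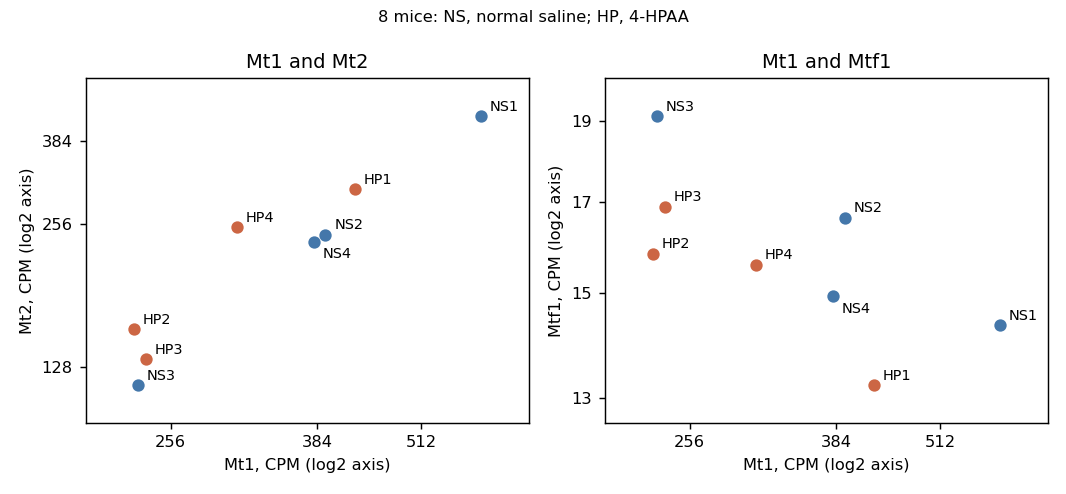
Mt1 against Mt2 (left) and against Mtf1 (right) in the 8 mice, in CPM on log2 axes (blue, normal saline; orange, 4-HPAA). Mt1 and Mt2 follow a line on which the groups are mixed (r = 0.951), while Mtf1 is lowest in 4-HPAA 1 and normal saline 1, the mice with the most Mt1.

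As a description over the 8 mice, the tested genes whose log2 CPM was most like each of the 6 were found by Pearson's r. For Mt1 these were Mt2 (r = 0.951), Acat2 (0.951) and Zfp276 (0.932). For Mt2 they were Cd302 (r = 0.975), Gpihbp1 (0.967) and Cntf (0.957), with Mt1 ranked 4. The nearest genes were Ccl25 (r = 0.956), Synm (0.936) and Gapvd1 (0.928) for Mtf1, and Ldha (r = 0.994), Acadl (0.981) and Apoa4 (0.981) for Slc30a1. For Slc30a10 they were Phf10 (r = 0.963), Vkorc1l1 (0.962) and Bend3 (0.934), and for Slc39a14 they were Med24 (r = 0.969), Cyp27a1 (0.964) and Zfp446 (0.962). The points are the same 8 libraries for every gene, and such values are the top of 12883 genes.

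No inducer of metallothioneins was measured. Lists of genes tied to known inducers were read instead, beside circadian clock genes, red cell markers and total counts. Normal saline 1, the mouse highest in Mt1, Mt2 and Slc39a14, was also the highest of 8 in 9 of the 14 glucocorticoid-responsive genes other than the metallothioneins, where 12.0% of all tested genes were highest in that library. It was also the highest in 4 of 5 cholangiocyte markers and 4 of 6 stellate cell markers, such as Spp1 and Col3a1, and the lowest in 9 of 18 oxidative stress genes, against 12.7% of tested genes. Fkbp5, a chaperone that glucocorticoids induce, read 293 CPM there and 121 to 211 CPM in the other 7 mice, and Ddit4, a stress-induced inhibitor of mTORC1, read 90.8 CPM there and 13.8 to 29.4 CPM in the others. The mean log2 CPM of the 14 genes was 7.54 in normal saline 1 and 6.82 to 7.06 in the others. Over the 8 mice it had an r of 0.734 and a rho of 0.381 with the log2 of the summed metallothioneins, and r was 0.385 without normal saline 1 and normal saline 3 and 0.392 without normal saline 1 alone, so that the relation rested on that mouse. The leaving out of normal saline 1 alone was chosen after the data were seen. The mean of 22 acute phase genes had an r of 0.773 and a rho of 0.643, and an r of 0.696 without those 2 mice and 0.675 without normal saline 1. For 17 oxidative stress genes r was 0.0254, or 0.577 without those 2 mice, and for 16 circadian clock genes it was 0.553, or 0.0914 without them. The red cell markers gave 0.331, or 0.446 without them. The total counts of the libraries gave -0.0895, but -0.662 without those 2 mice and -0.769 without normal saline 1 alone. Over the 8 mice, none of these 6 relations passed after adjustment. The adjusted p of the exact permutation test of r was 0.088 for the glucocorticoid list and for the acute phase list. It was 0.313 or more for the others. The part of these list levels in the metallothionein levels was not tested.

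Between the groups, these lists held 0 calls at an adjusted p of 0.05 in edgeR, and calls at an unadjusted p under 0.05 are read beside the 1.75% over all tested genes. In the glucocorticoid list of 16 genes, which includes Mt1 and Mt2, there were 3 such calls and a median log2 fold change of -0.14. Zbtb16, a transcription factor that glucocorticoids induce, read 29.98 to 52.7 CPM in the control mice and 55.2 to 85.5 CPM in those given 4-HPAA, without overlap, and had a log2 fold change of 0.63 ± 0.18 (SE, unadjusted p = 0.00578, edgeR). Tsc22d3, which encodes the glucocorticoid-induced leucine zipper, went the other way at -0.27 ± 0.12 (SE, unadjusted p = 0.0478, edgeR), and Ddit4 had -1.06 ± 0.44 (SE, unadjusted p = 0.0370, edgeR) with normal saline 1 far above the rest. The abundant gluconeogenic and amino acid enzymes Pck1 and Tat had log2 fold changes of 0.0007 and 0.03. In the acute phase list, 1 of 22 was called, Apcs, which encodes serum amyloid P, at -0.44 ± 0.16 (SE, unadjusted p = 0.0239, edgeR), and the median was -0.02. The ends of that list were Socs3, a feedback inhibitor of cytokine signaling, at 0.36 ± 0.30 (SE) and Lcn2, an iron-siderophore binder, at -0.75 ± 0.44 (SE). Its abundant members Hpx and Hp, the heme and hemoglobin binders, had -0.02 and -0.11. Of the oxidative stress genes, 0 of 17 were called, the median was 0.03, and the range ran from Gstm1 at -0.11 to Gsta1 at 0.11, with Gpx1 at 0.10 and Cat at 0.03. Of the circadian genes, 0 of 16 were called, the median was 0.03, and the range ran from Per1 at -0.20 to Bhlhe41 at 0.26, with Tef at -0.0076. The genes under the filter were Slc7a11 and Npas2.

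The single transcripts of the 6 genes were examined, since pseudo-alignment shares the reads of a gene among them. Of 26 transcripts listed, 15 were tested, 0 passed an adjusted p of 0.05 and 1 had an unadjusted p under 0.05, against 979 of 25533 transcripts (3.83%). That transcript was Mt2-202, a short form that reaches 77 bases into the 394 intron bases of Mt2-201, with a log2 fold change of -0.92 ± 0.37 (SE, unadjusted p = 0.0304, edgeR). It held 1.62% to 3.42% of the counts of Mt2 in 7 mice and 0.512% in 4-HPAA 4. The spliced forms Mt1-201 and Mt2-201, which held 80.7% to 95.4% and 96.6% to 99.5% of their genes, had log2 fold changes of -0.37 ± 0.30 and -0.27 ± 0.38 (SE).

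The same mouse stood apart in Mt1. Mt1-202 is a single exon of 1085 bases that covers both introns of Mt1-201, 697 bases in all. Its counts were 1763, 1189, 949 and 1742 in normal saline 1 to 4 and 1418, 878, 833 and 349 in 4-HPAA 1 to 4. Its share of the Mt1 counts was 9.37% to 15.7% in normal saline, 11.3% to 12.7% in 4-HPAA 1 to 3, and 3.98% in 4-HPAA 4. Mt1-203, which covers 1 intron whole, held 2.26% to 3.93% in 7 mice and 0.592% in 4-HPAA 4. The log2 fold changes were -0.67 ± 0.36 (SE, unadjusted p = 0.0936, edgeR) for Mt1-202 and -0.88 ± 0.43 (SE, unadjusted p = 0.0676, edgeR) for Mt1-203, so neither form differed between the groups beyond the spread of the mice.

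Mt1-202, Mt1-203 and Mt2-202 are annotated as protein coding, not as retained introns. In 4-HPAA 4, transcripts annotated as retained introns were also low in other genes. Over all genes they held 1.94% of the counts there and 2.08% to 2.37% in the other 7 mice, and within Slc39a14 they held 8.48% there and 11.2% to 16.3% in the others. Mtf1-204, the retained-intron form of Mtf1, was not low there, with 11.2% of the counts of Mtf1 against 4.29% to 10.7%. Over the 8 mice the share of Mt1-202 and the retained-intron share of all genes had an r of 0.741 and a rho of 0.667, and r was -0.0788 without normal saline 4 and 4-HPAA 4, so that the relation rested on those mice. These shares were examined after the data were seen, and the part of RNA quality in them was not tested.

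**Figure D5:**
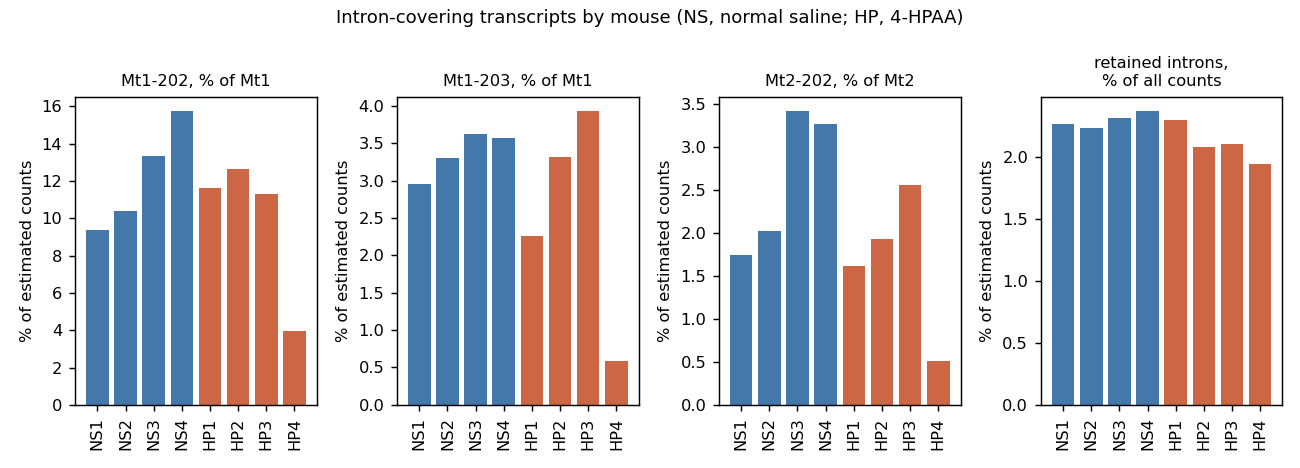
Share of estimated counts, in % for each mouse on axes from 0, with normal saline in blue and 4-HPAA in orange. The panels show Mt1-202 and Mt1-203, which cover 2 and 1 introns whole, Mt2-202, which covers introns only in part, and all transcripts annotated as retained introns. 4-HPAA 4 is the lowest bar in each of the 4 panels, at 3.98%, 0.592%, 0.512% and 1.94%.

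Slc39a14 had the most transcripts, 13, and its main form Slc39a14-202 held 76.4% to 84.9% of its counts, with a log2 fold change of -0.09 ± 0.12 (SE). Slc39a14-201 had 0, 154, 445 and 86 counts in normal saline 1 to 4 and 440, 647, 250 and 187 counts in 4-HPAA 1 to 4, and was under the filter. Slc39a14-210 had a log2 fold change of -0.66 ± 0.31 (SE, unadjusted p = 0.0592, edgeR). Slc30a10 was listed with 1 transcript, and Slc30a1-201 held 99.87% to 100% of the counts of Slc30a1.

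Sequence shared with other genes limits some of these values. Of the 481 stretches of 31 bases in Mt2-201, 270 (56.1%) also occur in the antisense gene Gm45774 on the opposite strand or in Pip5k1a. The share was 9.09% for Mtf1-201, with 1110065P20Rik on the opposite strand, 8.42% for Slc30a1-201, with the antisense gene 1700034H15Rik, 8.94% for Slc30a10-201 and 1.05% for Slc39a14-202. Of these opposite-strand genes, 1110065P20Rik had 197 to 325 counts per library. Gm45774 and 1700034H15Rik had no listed transcript, so no reads were assigned to them. The library kit keeps the strand, but kallisto was run with standard parameters, which set no strand option, and without strand the reads of such partners cannot be told apart.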

How the data were processed

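Liver RNA of 4 mice given normal saline and 4 given 4-HPAA was analysed. The authors pseudo-aligned the reads with kallisto, after FastQC 0.11.9, to transcripts of GRCm38.p6 and deposited estimated counts for each transcript and mouse, with no normalization or pooling. Here they were summed per gene by GENCODE M21 (116728 of 119414 transcripts matched, and 0.703% to 1.06% of counts were left out) and rounded. Because kallisto shares reads among similar transcripts, gene sums are firmer than single transcripts.

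The test was edgeR 4.0.16 in R 4.3.3 (quasi-likelihood, TMM, Benjamini-Hochberg, threshold 0.05), on genes that reached 10 counts in each of the 8 libraries. The SE was recovered from the log2 fold change and the F statistic. As alternatives, DESeq2 1.42.0, limma 3.58.1 with voom weights, other normalizations and filters, each library left out, and the replicate number as a block were run. The steps were tested on simulated data. Replicate numbers come from the labels and mark single mice. Of the 4 same-number pairs, 3 had a correlation of deviations over 0.1, which does not settle whether the numbers mark pairs. The labels do not state that mice were paired, so the main test did not pair them, and the block was run as an alternative.

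The genes, lists and tests were chosen with earlier results of these data known. Beside the 6 genes, the text names, for each list of metal-handling and inducer genes but not for the cell markers, the 2 genes with the highest level per length, those with the highest and lowest log2 fold change among the tested, every gene with an unadjusted p under 0.05, the 3 genes most like each of the 6, and Mt3 and Mt4. A gene that this rule gave is not reported here. The genes Car2, Spp1, Col3a1, Fkbp5, Zfp36l2, Ggnbp1 and CAAA01147332.1 were named after their values were seen. Promoters and motif searches used RefSeq sequences, which matched 5 of the 6 genes.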

Additional observations from a re-analysis of the deposited data

Results flagged for a closer look

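Of 72 groups of 4 mice examined for a mouse apart from the other 3, 5 had one, by a gap over the 95% critical value of Dixon's test, and chance gives about 1 in 20, or 3.6 of 72. None was a gene level of the 6 zinc genes. The share of Mt1 counts in the intron-covering Mt1-202 was 3.98% in 4-HPAA 4 and 11.3% to 12.7% in the other mice given 4-HPAA. In normal saline 1, Ddit4 read 90.8 CPM against 22.8 to 29.4 CPM, and Lcn2 read 17.6 CPM against 4.43 to 5.21 CPM, in the mouse that was also highest in Mt1 and Mt2. Gsta1 read 4.16 CPM in normal saline 4 against 0.590 to 0.926 CPM. Hp read 2120 CPM in 4-HPAA 2 against 2903 to 3042 CPM.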

How the results depend on the processing

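The log2 fold changes of the 6 genes kept their direction in 88 of 96 alternatives (16 per gene), and an adjusted p under 0.05 was reached in 0 of them. The 8 reversals came from leaving out libraries. They were Mt2 without normal saline 1 (0.087), Mtf1 (0.0074) and Slc30a1 (-0.03) without normal saline 3, Slc30a1 (-0.069) and Slc30a10 (-0.024) without 4-HPAA 4, and, without normal saline 2 and 4-HPAA 4 together, the libraries with the highest red cell marker sums of their groups, Slc30a1 (-0.081), Slc30a10 (-0.048) and Slc39a14 (0.0091). Leaving out each library in turn gave log2 fold changes from -0.63 to -0.16 for Mt1, from -0.53 to 0.087 for Mt2, from -0.13 to 0.0074 for Mtf1, from -0.069 to 0.11 for Slc30a1, from -0.024 to 0.36 for Slc30a10 and from -0.17 to -0.023 for Slc39a14, and r of Mt1 and Mt2 from 0.917 to 0.981. Against 0 genes passing in edgeR, DESeq2 passed 2 (Zfp36l2 and Ggnbp1), and edgeR without 4-HPAA 1 passed 1 (CAAA01147332.1), so that leaving out libraries gave 0 to 1. The cause was not tested. Total counts only and RLE normalization moved the median log2 fold change of all genes by -0.0068 and 0.0022. With the replicate block, 0 genes passed, 336 against 225 had an unadjusted p under 0.05, and Mt1 had a log2 fold change of -0.39 ± 0.13 (SE, unadjusted p = 0.0172, edgeR adjusted p = 1.00). Same-number correlations ran from 0.0398 to 0.481, and 4 of 8 libraries correlated best with their own number. At an unadjusted p under 0.05, where 336 of the 12883 genes were called, the block called 1 of the 6 genes against 0. It called 4 glucocorticoid genes against 3 and 4 acute phase genes against 1. These calls overlap, since Mt1 is also in the glucocorticoid list and Lcn2 is in both lists. Of the 3 glucocorticoid calls of the main test, the block kept Zbtb16 (unadjusted p = 0.000103, edgeR). It did not keep Tsc22d3 (unadjusted p = 0.0522, edgeR) or Ddit4 (unadjusted p = 0.0741, edgeR). The block moved no other of the 6 past an unadjusted p of 0.05. The edgeR p-values of the main test set the difference against the spread between separate mice of a group. Those of the block use the spread left after the replicate number is fitted.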
